A study of Caenorhabditis elegans with 4 samples.

Results

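The 8 genes described here carry the insulin signal of Caenorhabditis elegans from its receptor to the FOXO transcription factor. They are the receptor gene daf-2, the lipid kinase and phosphatase genes age-1 and daf-18, the protein kinase genes pdk-1, akt-1, akt-2 and sgk-1, and the FOXO gene daf-16. They were chosen by name as a pathway, with earlier results of these data known, from 19973 protein-coding genes on the 6 nuclear chromosomes. Each was taken with its body and 5000 bp on each side, called its window.

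The binding of UNC-62, a homeodomain transcription factor of the TALE class related to MEIS and Homothorax proteins, was mapped by chromatin immunoprecipitation and sequencing (ChIP-seq). All 4 biological replicates were whole L3 larvae of mixed sex, of unstated age, from strain OP600. This strain is unc119(ed3) and carries the insertion wgIs600, in which unc-62 is joined to TY1, EGFP and FLAG and is accompanied by unc119. All libraries come from these animals, no untagged or mutant group was analysed here, and the labels do not say which promoter drives the tagged protein or whether the animals keep an untagged unc-62. Replicates 1 and 2 are labelled with a stock center as source and a fragment size range of 150 to 350 bp. Replicates 3 and 4 are labelled with the laboratory as source and microtip sonication. Since whole animals were used, binding in a few cells and weak binding in many cannot be told apart, and no expression was measured.

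In worms, insulin-like peptides act on DAF-2, and the AGE-1 phosphoinositide 3-kinase then makes the lipid PIP3 at the membrane. PIP3 recruits PDK-1 and the AKT kinases, and phosphorylation of DAF-16 by AKT keeps it out of the nucleus. DAF-18, a lipid phosphatase, removes PIP3 and so opposes the pathway. When signalling is low, DAF-16 enters the nucleus and turns on genes for stress resistance, dauer arrest and long life.

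The authors deposited a list of regions for each replicate, a list for the merged replicates, and an optimal list thresholded by the irreproducible discovery rate. This rate is meant to retain regions whose rank holds up across replicates. Here the optimal regions are the 1037 highest of the merged list, and an optimal region can be low in a replicate's list or missing from it. The replicate lists held 30000, 30000, 30000 and 28073 regions, the merged list 18556 and the optimal list 1037. Regions were ranked by the authors' signal value within each list, rank 1 being the highest, because signal scales differed between lists. The 1037 highest regions of a replicate are called its highest regions. The longer lists hold background as well as binding, and the authors' −log10 q-value is higher for a region that stands out more from background.

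UNC-62 had optimal regions at the FOXO gene daf-16 and at the kinase gene akt-2, and at none of the other 6 genes. The daf-16 region lay in an intron, ranked 115 with a signal of 85.71, and the akt-2 region lay in the promoter, ranked 468 with a signal of 52.16. That is 25% of the 8 genes, beside 10.6% of all protein-coding genes with an optimal region in the same kind of window. An optimal summit at a start, from 1000 bp upstream to 200 bp downstream of any transcript start, was found for akt-2 alone, beside 2.63% of all genes. Merged regions lay in the windows of all 8 genes, but 82.7% of all genes had one, so their presence alone sets these genes little apart.

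Across replicates, daf-16 was the only one of the 8 genes with a highest region in every replicate. Genes of the pathway with a highest region numbered 2 in replicate 1 (akt-2 and daf-16) and 3 in replicate 2 (daf-2, daf-16 and sgk-1). The number was 1 in replicate 3 (daf-16) and 3 in replicate 4 (akt-1, akt-2 and daf-16), giving a mean of 2.25 ± 0.957 (SD, n = 4). The shares of all genes with a highest region were 10.6%, 10.6%, 10.5% and 11.1% in replicates 1 to 4, against 25%, 37.5%, 12.5% and 37.5% of the 8. A highest region of every replicate lay in the windows of 2.39% of all genes. This share was not counted for long genes alone, and the daf-16 window is 36206 bp. It also allows a different region in each replicate, as at daf-16, whose optimal region ranked 1995 in replicate 4. Apart from daf-16, the genes with a highest region thus differed from replicate to replicate, and age-1, pdk-1 and daf-18 had a highest region in none.

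**Figure D1:**
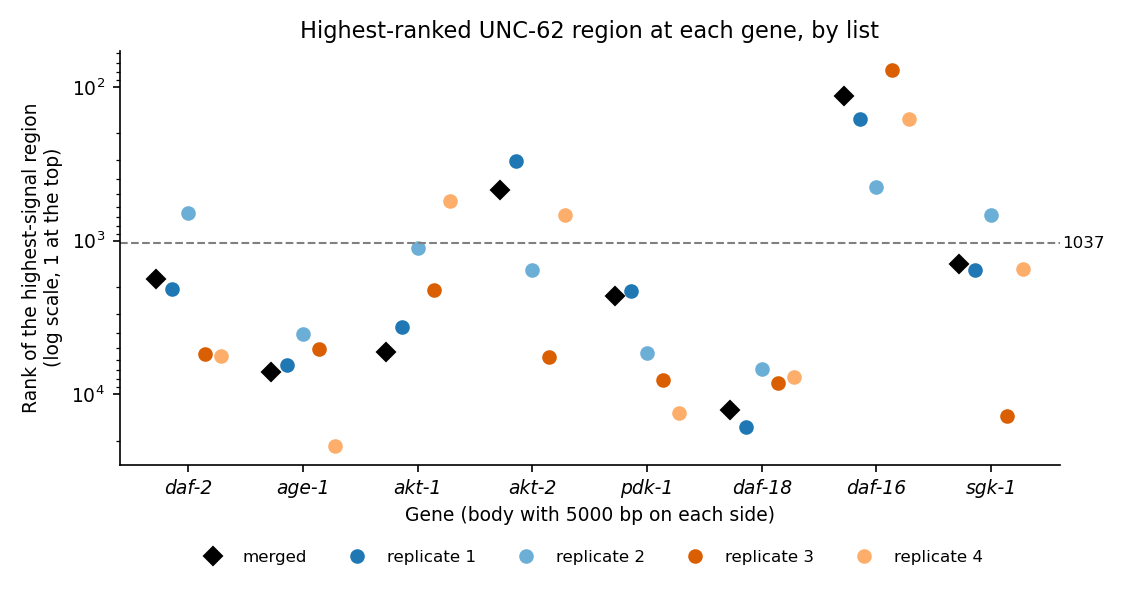
The best rank of any region in each gene's window, on a log scale with the highest rank at the top, is plotted for the 4 replicates and the merged list, and the dashed line marks rank 1037. The daf-16 points sit together above the line, at 162, 447, 77 and 161 in the replicates, while the points of age-1, pdk-1 and daf-18 all lie below it.

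The receptor gene daf-2 (WBGene00000898) had many regions over a long gene, none of them optimal. It occupies III:2994514-3040846 on the minus strand and has 6 transcript starts. Its window held 11 merged regions, 8 of them with summits inside the gene body, and the nearest optimal region was 118195 bp from the body. The 4 replicates listed 17, 20, 15 and 12 regions there (16 ± 3.37, SD, n = 4), with best ranks of 2050, 662, 5450 and 5616. Only replicate 2 placed one among its highest regions.

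The best merged region of daf-2, III:3037400-3037755, had a signal of 28.53 and ranked 1778. It lay in an intron, 3268 bp downstream of the start of the longest transcript (c) and 8778 bp upstream of the start of transcript a. It was listed in all 4 replicates at ranks of 2050, 5965, 10820 and 23095, lower in replicates 3 and 4 than in replicates 1 and 2. The highest region of replicate 2 was another one, III:3036086-3036475 also in an intron, 4565 bp downstream of the c start, with a signal of 10.77. No region of the merged list or of the other replicates overlapped it. The best region of replicate 3 was intergenic, 1547 bp upstream of the c start, and that of replicate 4 was intronic, so the replicates differed in where the best daf-2 region lay.

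Sequence around the summits shows what lies under these regions. A search of both strands, 50 bp to each side of every merged summit, covered 5 short motifs: TGACAG (bound by MEIS and Homothorax proteins), TGATTGAT (PBX with Hox proteins), its degenerate form TGATNNAT, which includes every TGATTGAT, GTAAACA (bound by FOXO proteins) and CTTATCA (the GATA type element linked to the FOXO response in worms). The window of 101 bp at the best daf-2 region, III:3037528-3037628, holds GTAAACA, the letters a FOXO factor reads, from 35 to 41 bp after the summit. Among the kinase genes, the promoter region of akt-2 (X:14146920-14147020) is the only optimal region at a start, the region upstream of pdk-1 (X:1319999-1320099) holds CTTATCA, and replicate 4's region upstream of akt-1 (V:10246133-10246233) and a region upstream of sgk-1 (X:16263617-16263717) hold TGACAG. Apart from the akt-2 promoter, these were chosen because they hold a motif: the best merged regions of pdk-1 and sgk-1 and all 7 merged regions of akt-1 hold none of the 5, and the akt-1 sequence is centred on a summit of replicate 4 outside the merged search. Sequences are from the RefSeq genome, build WBcel235 (ce11), plus strand, 5′ to 3′, with the motif in capitals.
daf-2 intron: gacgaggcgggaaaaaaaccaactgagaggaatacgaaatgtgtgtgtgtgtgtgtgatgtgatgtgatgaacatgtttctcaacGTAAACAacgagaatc
pdk-1 upstream: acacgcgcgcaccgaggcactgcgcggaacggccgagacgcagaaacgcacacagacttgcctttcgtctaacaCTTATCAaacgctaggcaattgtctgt
akt-1 upstream, replicate 4: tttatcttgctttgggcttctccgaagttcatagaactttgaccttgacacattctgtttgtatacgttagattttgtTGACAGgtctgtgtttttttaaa
akt-2 promoter: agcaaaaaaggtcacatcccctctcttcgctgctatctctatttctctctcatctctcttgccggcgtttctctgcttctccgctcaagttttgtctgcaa
sgk-1 upstream: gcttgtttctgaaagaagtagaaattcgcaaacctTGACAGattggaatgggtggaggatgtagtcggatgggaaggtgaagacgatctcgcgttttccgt
The akt-2 sequence holds none of the 5 motifs and therefore no capitals. It is rich in C and T on this strand, 70.3% of its bases, and 4.4% of merged regions were as rich on 1 or the other strand, with a median of 56.4% for the richer strand. This property was chosen after the sequence was seen.

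The lipid enzyme genes had low-ranked regions, and their regions per length fell on both sides of the values for all genes and the genome. Per 10 kb, age-1 held 1.69 merged regions and daf-18 1.32, beside a median of 1.63 over all genes and 1.85 for the nuclear genome. In the replicates' own lists age-1 held 2.40 ± 1.16 and daf-18 3.63 ± 0.851 (SD, n = 4), beside 2.94 ± 0.0971 for the genome. The kinase gene age-1 (WBGene00000090), which encodes the catalytic subunit of the phosphoinositide 3-kinase, lies at II:11519328-11527054 on the minus strand. It had 3 merged regions, and the nearest optimal region was 20200 bp from its body. The 4 replicates listed 4, 7, 4 and 2 regions, with best ranks of 6447, 4063, 5042 and 21629. None of these ranks is near the 1037 highest, and replicate 4 was the lowest of all.

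The best age-1 merged region, II:11516914-11517269, ranked 7179 with a signal of 15.64 and fell in a coding exon of the neighbouring gene srh-44. Its −log10 q-value was 0.344. A region ranked 11253 fell in a coding exon of age-1 itself, 629 bp downstream of the start. A region ranked 14013 lay 797 bp upstream of the start of the short transcript b, but only 157 bp upstream of another gene, Y62F5A.10, which lies inside age-1. Each of these 3 merged regions was listed in 2 replicates. The best region of replicate 1 lay in the intron 174 bp downstream of the age-1 start and had no merged counterpart, and that of replicate 2 lay in the neighbour mdt-8.

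The phosphatase gene daf-18 (WBGene00000913), at IV:420011-425177 on the minus strand, had 2 merged regions, the lowest best rank of the 8 genes at 12753. This region, IV:421994-422349, had a signal of 12.50 and a −log10 q-value of 0.099. It lay in a coding exon, 3005 bp downstream of the single start. It was listed only in replicate 4, at rank 19895. The other merged region, ranked 17657, lay in the 3' UTR of the neighbour eri-1 and was listed only in replicate 3, at rank 8441.

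Single replicates listed 6, 4, 5 and 7 regions at daf-18 (5.50 ± 1.29, SD, n = 4), with best ranks of 16305, 6828, 8441 and 7748. These best regions were 4 different ones: intergenic sequence 2069 bp upstream of the start in replicate 1, an intron in replicate 2, the eri-1 3' UTR in replicate 3 and the eri-1 promoter in replicate 4. No merged summit lay at the daf-18 start, but a low promoter region was listed there in 3 replicates, 66, 129 and 172 bp upstream in replicates 1, 2 and 4, at ranks of 23084, 21155 and 21086. The nearest optimal region was 18546 bp from the body.

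The kinase gene pdk-1 (WBGene00003965), whose product phosphorylates and activates AKT, lies at X:1321344-1327986 on the plus strand. Its 5 merged regions included none in a promoter, and the nearest optimal region was 16888 bp away. The replicates listed 7, 7, 6 and 2 regions (5.50 ± 2.38, SD, n = 4), with best ranks of 2121, 5351, 8105 and 13324. Ranks were thus highest in replicates 1 and 2 and lowest in replicate 4.

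The best pdk-1 region, X:1323001-1323356, ranked 2300 with a signal of 25.18 and lay in an intron 1826 bp downstream of the nearer start. It ranked 2121, 12033 and 9981 in replicates 1 to 3 and was not listed in replicate 4. The region 1295 bp upstream of the start, X:1319871-1320226, ranked 3923 and was listed in all 4 replicates, at ranks of 3777, 5351, 24391 and 25819. This is the region printed above with CTTATCA, which lay 24 to 30 bp after its summit. Of the other 3 merged regions, 2 had their nearest start at the neighbour F21E9.2.

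The AKT kinase gene akt-1 (WBGene00000102), at V:10248905-10252845 on the plus strand, had 7 merged regions in a short window. That is 5.02 per 10 kb, beside 1.85 per 10 kb of the nuclear genome, and 623 of 19973 genes were as dense. These merged regions were weak: their −log10 q-values ran from 0.035 to 0.576, beside 3.424 at the optimal daf-16 and akt-2 regions. The replicates listed 10, 10, 10 and 7 regions (9.25 ± 1.50, SD, n = 4), with best ranks of 3632, 1112, 2099 and 551. Only replicate 4 had one of its highest regions here.

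The best regions of akt-1 were spread over the window. The best merged region, V:10246737-10247092, ranked 5279 with a signal of 17.61, lay 1990 bp upstream of the nearest start, and ranked 3632, 3653 and 21375 in replicates 1, 2 and 4. The region of replicate 4 at rank 551, V:10245983-10246382, lay 2722 bp upstream and overlapped no merged region. A promoter region 232 bp upstream of the start ranked 15180 in the merged list but 1112 in replicate 2, where its counterpart peaked 175 bp upstream of the start. Regions of the 3' UTR ranked 2099 in replicate 3 and 11084 in the merged list. At the downstream end, 3 of the 7 merged regions belonged by nearest start to the neighbours rop-1 and nhr-232, beyond the 3' UTR region, whose nearest start was also that of rop-1.

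The other AKT kinase gene, akt-2 (WBGene00000103), at X:14147700-14152070 on the plus strand, had the only optimal summit at a start among the 8 genes. The region X:14146792-14147147 was a promoter region, its summit 730 bp upstream of the 1 start that both transcripts share. It ranked 301, 1559 and 12814 in replicates 1, 2 and 3 and was not listed in replicate 4. It was therefore a highest region of replicate 1 alone, where its signal was 33.14.

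Replicate 4 placed its best akt-2 region downstream of the gene instead, at X:14152279-14152678, rank 676, signal 8.35. This is the second merged region of akt-2, ranked 17000 in the merged list. It lay 4760 bp downstream of the akt-2 start and 4553 bp from that of its nearest neighbour by start, ceh-90, and no other replicate listed it. The best region of replicate 3, rank 5738, lay in the 3' UTR. The replicates listed 4, 2, 6 and 4 regions at akt-2 (4.00 ± 1.63, SD, n = 4), and its 1.39 merged regions per 10 kb were below the genome's 1.85.

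The kinase gene sgk-1 (WBGene00004789), a relative of AKT that acts in the same pathway, lies at X:16254842-16262122 on the minus strand. Its best merged region, X:16265983-16266338, ranked 1420 with a signal of 31.81, the best rank among the 52 regions of the 8 windows outside the optimal list. It lay 4039 bp upstream of the first sgk-1 start, but 475 bp upstream of the start of mua-6, an intermediate filament gene that lies between them. All 4 replicates listed it, at ranks of 1556, 677, 13832 and 1540, and it was the best sgk-1 region in each. In replicate 4 the summit of rank 1540 lay 794 bp upstream of mua-6, and a weaker overlapping region of rank 9510 peaked 530 bp upstream. Replicate 3 was far below the others, and replicate 2 alone placed it among its highest regions.

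Nearer to sgk-1, regions were weaker. A promoter region 593 bp upstream of the internal start ranked 6197, and one 214 bp upstream of the first start ranked 11040. The region printed above with TGACAG, X:16263489-16263844, ranked 6125 and lay in a coding exon of mua-6, 1545 bp upstream of the first sgk-1 start. These 3 regions were each listed in 2 replicates. The nearest optimal region was 44836 bp from the gene, and the replicates listed 3, 10, 5 and 5 regions (5.75 ± 2.99, SD, n = 4).

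**Figure D2:**
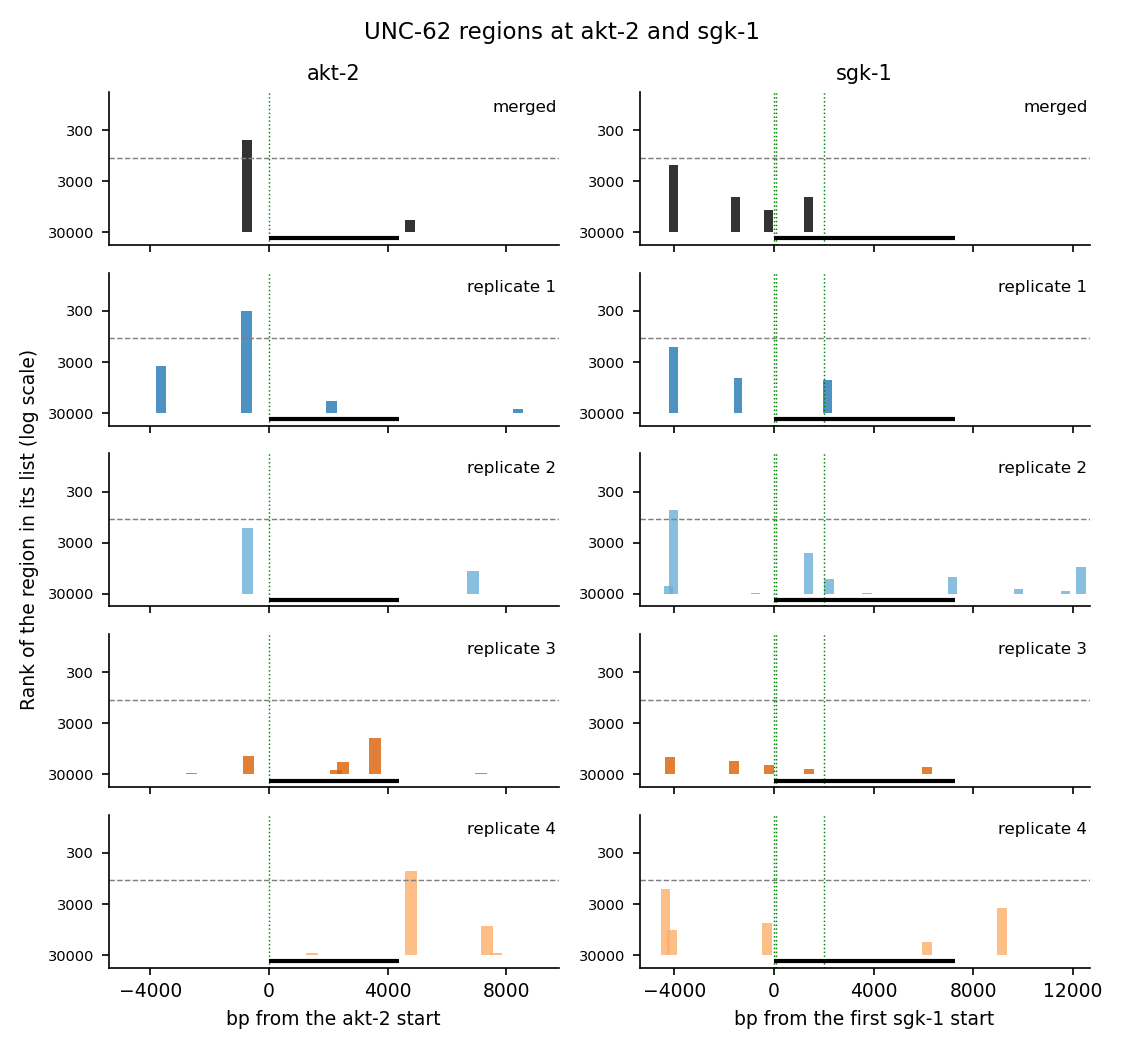
Regions in the windows of akt-2 and sgk-1 are drawn by distance in bp from the start along the direction of transcription, as bars whose height gives the rank in the list on a log scale, for the merged list and the 4 replicates. The black bar is the gene body, dotted lines are transcript starts and the dashed line is rank 1037. The akt-2 promoter bar is high in replicate 1 and missing in replicate 4, where the bar past the gene end rises to rank 676, while the sgk-1 bar 4039 bp upstream is present in all 4.

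The FOXO gene daf-16 (WBGene00000912) differed from the other 7 genes in the rank, number and recurrence of its regions. It lies on chromosome I from 10750498 to 10776703, plus strand, with 11 protein-coding transcripts from 7 starts. Its optimal region ran from 10769691 to 10770046 with its summit at 10769869, in an intron. The summit lay 1639 bp upstream of the a start and 3130 bp upstream of the e start, the starts of the shorter transcripts. It lay 6766 bp downstream of the b and c start, 6215 bp downstream of the l and m start, and 18909 to 19371 bp downstream of the starts at the 5' end of the gene.

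The region ranked 162, 447, 77 and 1995 in replicates 1 to 4, so it was a highest region of 3 replicates. Among all merged regions, 2.52% recurred among the highest of at least 3 replicates, and of the 54 in the 8 windows this was the only one, 1.85%. The optimal regions are the 1037 highest merged regions, and the share among them alone was not counted. The optimal regions near icl-1 and gpd-2, described below, were also highest regions of 3 replicates. That near gpd-2 ranked 1056 in the remaining replicate, closer to the cut than the daf-16 region at 1995. The overlapping summits of replicates 1, 2 and 3 lay 0, 105 and 27 bp from the merged summit, and replicate 4 had 2 regions there. The one of rank 1995 had its summit −306 bp from the merged summit, and a weaker one of rank 14595 had its summit 43 bp away. With summits required within 100 bp, the region was a highest region of 2 replicates. The region also lay 42 bp from the noncoding RNA gene R13H8.5 and 525 bp from R13H8.3, both inside daf-16.

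Replicate 4 had its best daf-16 region elsewhere, at the 3' end. There a region from 10776275 to 10776674, with its summit in the 3' UTR, ranked 161 with a signal of 12.00. Replicate 3 had a region at rank 554 beside it, from 10776616 to 10777011, and replicate 2 one at rank 2135. In the merged list the pair of regions at the 3' end ranked only 9697 and 9967, with signals of 13.93 and 13.77. The highest daf-16 region of replicate 4 was thus not the one ranked best in replicates 1 to 3. Replicate 4 placed another daf-16 region among its highest, at rank 537, 1402 bp upstream of the h start.

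Promoter regions of the merged list were present at 3 points of daf-16. The one at the 5' end, 10749828 to 10750183, lay 492 bp upstream of the h start, with a signal of 30.25 and a merged rank of 1581. It ranked 1123, 1571 and 17354 in replicates 1, 2 and 4 and was not listed in replicate 3. A region 190 bp upstream of the l and m start ranked 4763, with 1532 in replicate 2 as its best replicate rank. A region 497 bp upstream of the e start ranked 12022 and was listed in all 4 replicates, at ranks of 10172, 19262, 28496 and 21742. None of these reached the optimal list. Single replicates listed further promoter regions, upstream of the b start in replicates 1 and 3 (ranks 15207 and 5455) and 621 bp upstream of the a start in replicate 3 (rank 4081).

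In all, the daf-16 window held 20 merged regions, 11 of them in introns, and 18 had their nearest start at daf-16. The replicates listed 22, 27, 26 and 20 regions (23.8 ± 3.30, SD, n = 4). Of the 20 merged regions, 6 were overlapped in all 4 replicates at any rank, against 3 of the 34 regions of the other 7 genes. A further 9 of the 20 were overlapped in 3 replicates, and at akt-1 5 of 7 were, with 0 in all 4. The share overlapped in 3 replicates was not counted over the merged list. Over the merged list the share overlapped in all 4 replicates was 13.1%, and over the 54 regions 16.7%. Replicates 1 to 4 overlapped 80%, 75%, 80% and 65% of the daf-16 regions, beside 72.1%, 53.3%, 58.2% and 46.5% of the merged list. These shares were higher at daf-16 in each replicate, without a test, since regions of 1 gene are not replicates. The replicates' own lists were also denser there, 6.56 regions per 10 kb beside 2.94 for the genome, and the shares were not adjusted for this.

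**Figure D3:**
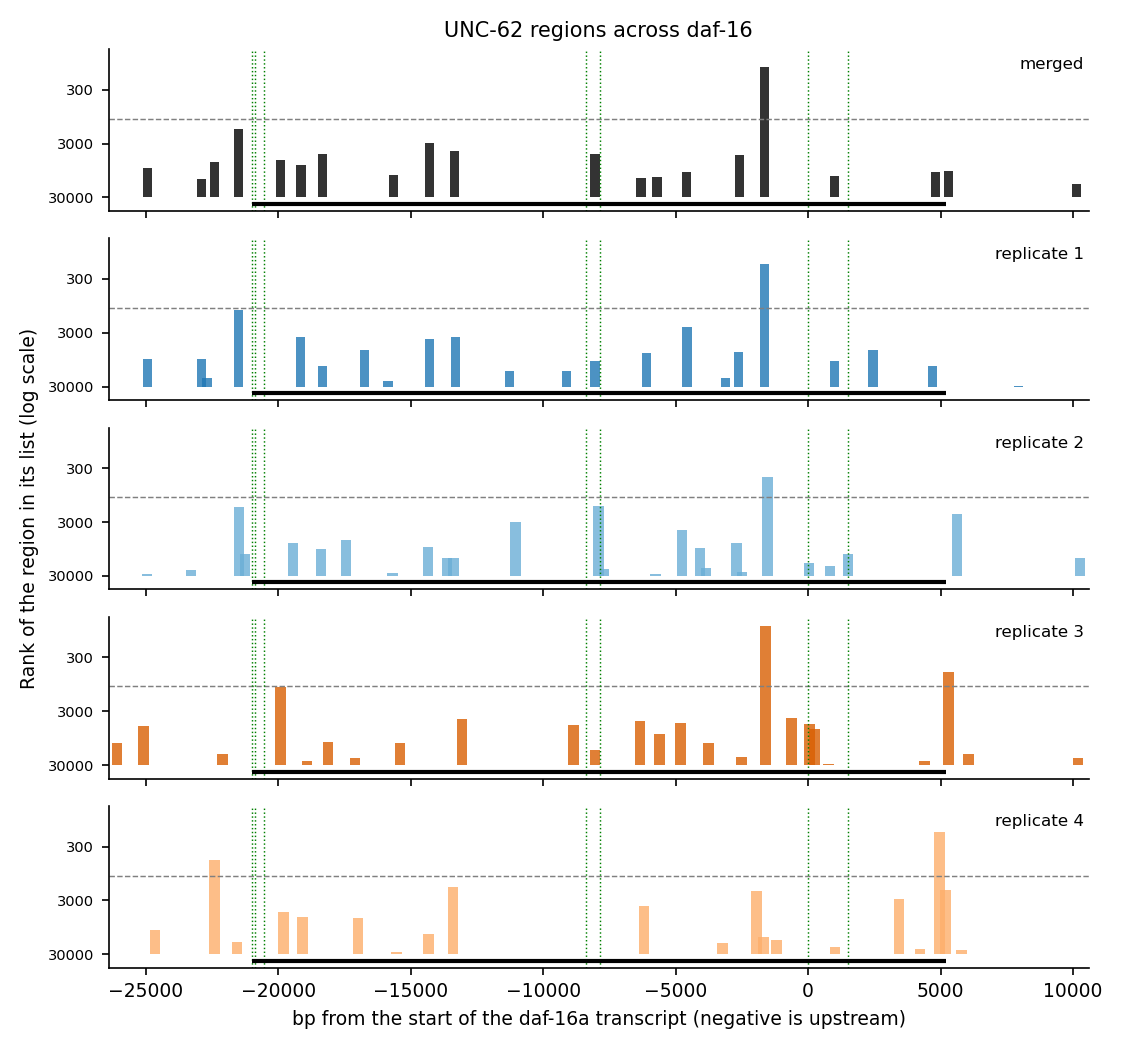
Regions in the daf-16 window are drawn by distance in bp from the start of the a transcript, as bars whose height gives the rank in the list on a log scale, for the merged list and the 4 replicates. The black bar is the gene body, dotted lines are transcript starts and the dashed line is rank 1037. The intron bar of rank 115 in the merged list stands above the line in replicates 1, 2 and 3, and in replicate 4 the highest bar is at the 3' end of the gene.

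Gene length enters these counts, because a long window meets more regions. Optimal regions lay in the windows of 21.2% of the 198 genes of at least 20000 bp, among them daf-16, beside 10.6% of all genes, while the longer daf-2 had none. Per length, daf-16 held 5.52 merged regions per 10 kb, and 387 of 19973 genes and 3 of the 198 long ones were as dense, itself included. The median was 1.63 per 10 kb over all genes and 1.92 over the long ones. By contrast daf-2 held 1.95, with 7286 genes as dense. In the replicates' own lists daf-16 held 6.08, 7.46, 7.18 and 5.52 regions per 10 kb (6.56 ± 0.913, SD, n = 4) and akt-1 7.17, 7.17, 7.17 and 5.02 (6.64 ± 1.08), beside 2.94 ± 0.0971 for the genome. Both genes were thus above the genome in each replicate, and their spreads overlapped each other. Most of the regions counted were weak. The daf-16 merged regions ranked 4164 or lower had −log10 q-values of 0.842 or less, and no akt-1 merged region exceeded 0.576.

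**Figure D4:**
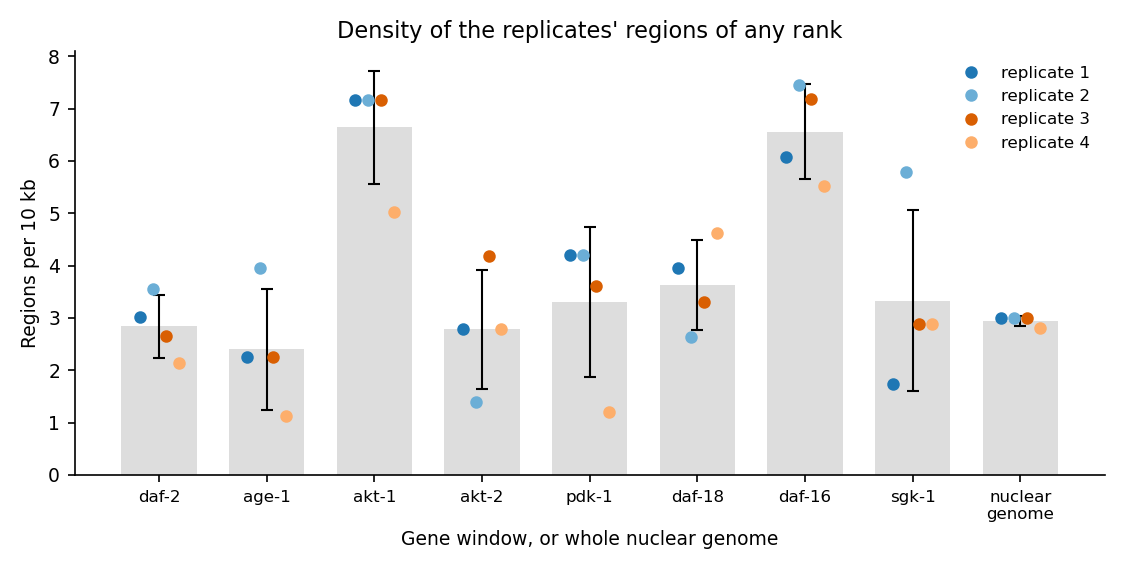
Regions per 10 kb of window are shown for each of the 8 genes and the genome, with points for the 4 replicates, bars for their mean and error bars for the SD. The daf-16 and akt-1 bars stand highest, at 6.56 and 6.64, beside 2.94 for the genome.

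By position, the 54 merged regions of the 8 windows lay most often in introns, then in intergenic sequence and promoters. Introns held 19, or 35.2%, beside 27.4% of all merged regions, and promoters, taken as 1000 bp upstream of a start, held 11, or 20.4%, beside 29.5%. Coding exons held 9, or 16.7%, beside 11.5%. The 3' UTRs held 3, or 5.56%, beside 3.34%, the 5' UTRs held 0 beside 1.48%, and intergenic sequence held 12, or 22.2%, beside 26.8%. Of the 19 intron regions, daf-16 held 11 and daf-2 held 6. The nearest start was that of the pathway gene itself for 37 regions and that of another gene for 17. Of the 37, 18 were at daf-16 and 8 at daf-2, the 2 longest genes, and the share in windows of all genes was not counted.

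Of the 5 motifs, TGACAG lay at 5 of the 54 summits, 9.26%, beside 5.39% of all merged summits, and 4 of the 5 were in the daf-16 window. One of these was the optimal region, with TGACAG on the minus strand from −44 to −39 bp relative to the summit. GTAAACA lay at 3 summits, 5.56%, beside 1.14%: the best daf-2 region, the lowest ranked pdk-1 region and the eri-1 3' UTR region near daf-18. CTTATCA lay at 2 summits, 3.70%, beside 2.26%, in the pdk-1 upstream region and in a daf-16 intron region ranked 4164. TGATNNAT lay at 1, 1.85%, beside 8.95%, and TGATTGAT at 0, beside 1.28%. These matches are letters in a window, few in number, and were not tested.

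Other genes around the pathway were looked up as 4 lists of 44 genes, of which 43 were found in the annotation. The lists too were chosen with earlier results of these data known. An optimal region lay in the window of 7 of the 43, 16.3%, beside the 10.6% of all genes, and an optimal summit lay at the start of 2, par-5 and gpd-2. None of the 4 PI3K partners and receptor adaptors (aap-1, ist-1, shc-1 and ptp-2) had an optimal region, although all 4 had merged regions. The counts were 2 of 7 for kinases and phosphatases beside the pathway, 2 of 15 for FOXO regulators and 3 of 17 for FOXO targets.

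Among the kinases and phosphatases, the region of pptr-1, a regulatory subunit of the PP2A phosphatase that acts on AKT-1, ranked 910 with a signal of 39.54 and lay 1390 bp upstream. The region of aak-2, a catalytic subunit of AMP-activated kinase, ranked 364 with a signal of 57.38 in an intron, 968 bp downstream of a start. Each was a highest region of 2 replicates, and each had its nearest start at the named gene.

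The regions of the FOXO regulators lay nearer to other genes. That of par-5, a 14-3-3 protein gene, ranked 851 and lay 185 bp upstream of its start but 97 bp upstream of M117.3. That of smk-1, a cofactor of DAF-16, ranked 931 and lay 1250 bp upstream but 422 bp upstream of vps-60. Among FOXO targets, the region of gpd-2, a glyceraldehyde-3-phosphate dehydrogenase gene, ranked 458 and lay 585 bp upstream of its start. The nearest start was that of mai-1, and the summit lay 304 bp downstream of it. This region ranked 618, 248, 1056 and 362 in the replicates, just missing the highest regions of replicate 3. The regions of icl-1 (rank 276), a glyoxylate cycle enzyme gene, and hsp-12.3 (rank 588), a small heat shock protein gene, had their nearest starts at srh-2 and F38E11.9. Of the 7 regions, only those of pptr-1 and aak-2 had their nearest start at the listed gene.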

How the data were processed

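ChIP-seq regions of 4 replicates on build ce11 (WBcel235) were used. The authors' lists give, per region, a signal value (a score whose scale differs between lists), a −log10 q-value and a summit. Per the deposited notes, the merged list derives from all 4 replicates' alignments together with a control, and the optimal list was made from the other lists. How reads were aligned, and which caller found the regions, is not given in the sources used here. The ce10 lists, alignments, signal tracks and control were not analysed here. The lists hold no read counts, so depth is unknown and intervals cannot be given. Replicates are separate biological replicates of 1 group, so no comparison between conditions was made.

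Regions were read with Python 3.11.15 and numpy 2.4.6 and plotted with matplotlib 3.10.9. Coordinates are 1-based. No region ran past the end of its chromosome. Genes came from Ensembl release 115. Regions of different lists were matched by an overlap of at least 1 bp and compared by rank. The 1037 highest merged regions are the optimal list. Among the highest regions of replicates 3 and 4, 29 and 30 were mitochondrial, which lowers the ranks of nuclear regions there. Each summit received 1 class, in the order promoter, 5' UTR, coding exon, 3' UTR, intron and intergenic. The overlap and class steps were tested on simulated regions. No p-value was computed: genes and regions are not replicates. All 8 genes, all optimal regions and the best region of each list were named, with listed pathway genes where an optimal region lay in their window. Genes at other loci were named by nearest start. The listed gene dod-8 was not matched. The 8 genes and the lists were chosen with earlier results of these data known. Alternatives were the flank, the promoter and motif windows, the number of highest regions, and leaving out each replicate.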

Additional observations from a re-analysis of the deposited data

Results flagged for a closer look

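Among 19 sets of 4 replicate values tested, 4 had a replicate far from the others. The sets included regions per gene, best ranks and members with a highest region. Chance flags about 1 in 20 such sets if values are spread normally on the scale used. Best ranks were taken as they stand but spread over orders of magnitude, so this chance rate does not apply to them. Whether their flags would remain on a log scale was not tested, and they only describe the values. The best rank at age-1 was 21629 in replicate 4, against 6447, 4063 and 5042 in replicates 1, 2 and 3. The number of regions at akt-1 was 7 in replicate 4, against 10 in each of the others. Since the other 3 counts are equal, any differing value would have stood apart there, whatever its size, so the chance rate does not apply to it. The best rank at daf-18 was 16305 in replicate 1, against 6828, 8441 and 7748 in replicates 2, 3 and 4. The best rank at sgk-1 was 13832 in replicate 3, against 1556, 677 and 1540 in replicates 1, 2 and 4.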

How the results depend on the processing

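With no flank, members with an optimal region fell from 2 to 1 (daf-16), beside 2.12% of all genes, merged regions from 54 to 30, and the mean number of members with a highest region from 2.25 to 1.25. With flanks of 2000 and 10000 bp, 2 members had an optimal region, beside 6.23% and 17.5% of all genes. With each replicate left out, keeping optimal regions that the other 3 all place among their highest, members with an optimal region ranged from 0 to 1, the 1 being daf-16 without replicate 4. With the same requirement on all 4 replicates, added after seeing the data, the number was 0, so the requirement itself lowers the count and this range does not measure dependence on any 1 replicate. Members with an optimal summit at a start numbered 0 with 500 bp upstream, without akt-2, and 2 with 2000 bp, with daf-16 added. Promoter summits rose from 11 to 19 with 2000 bp. With 2 times the number of highest regions, 2 regions recurred in at least 3 replicates, and with summits within 100 bp, 0 did. The mean number of members with a highest region was 3.50 with 2 times as many highest regions and 1.25 with 0.5 times. TGACAG lay at 3 summits within 25 bp and 9 within 100 bp. At changed settings, shares of all genes were counted only for optimal regions with the other flanks. For the remaining counts no share of all genes or of all merged regions was counted at the changed setting. Whether those changes differ from the changes over all genes or regions is therefore not known. Ranks carry no depth, and a region missing from a list is not shown to be unbound. No paired analysis was possible because all 4 replicates belong to 1 group.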
